A study of Mus musculus with 2 samples.

Results

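Mir330, Mir383, Mir326, Mir490, Mir153, Mir218-2, Mir592 and Mir218-1 are 8 of the 2202 miRNA genes counted in the left cerebral cortex of adult female 5xFAD/CAST mice aged 8 to 10 months. They were chosen by name as miRNA genes inside introns of neuronal host genes, and the rule that picked them uses no measured value, although it was written with earlier results of these data known. The choice named a host for every gene but Mir330, whose host Eml2 was read here from the annotation. 5xFAD mice carry transgenes under a neuronal promoter and develop amyloid plaques, and the labels do not say how CAST entered the strain. The series holds 1 group of 2 small RNA libraries of fragments below 30 nt, labelled as biological replicates 1 and 2. The libraries come from different tissue samples that cite the same donor entry. Separate animals are not stated, so p-values measure only the difference between these samples, which may be technical. With 1 genotype, 1 age range and no treatment, levels were described within this tissue and the libraries were set against each other only.

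An intronic miRNA can be transcribed as part of its host gene when both lie on the same strand. The Microprocessor complex cuts the hairpin out of the unspliced transcript, Dicer cuts the loop away, and a single arm of the resulting duplex is usually kept in an Argonaute protein. The seed, bases 2 to 8 of that arm, pairs with target mRNAs and lowers their output. A miRNA of this kind is often taken to follow the transcription of its host, and several of the 8 miRNAs are known from neurons.

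The mature sequences show which of the 8 genes can share targets and which can share reads, and those bearing on the results are given here 5′ to 3′ with the seed in capitals. They are RefSeq sequences on GRCm38.p6. RefSeq hairpins were matched for 7 of the 8 genes, at the same coordinates as in the GENCODE M21 annotation of the count tables, and Mir383 is named only.
mmu-miR-330-5p: uCUCUGGGccugugucuuaggc
mmu-miR-326-3p: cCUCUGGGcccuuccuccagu
mmu-miR-218-5p: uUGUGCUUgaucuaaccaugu
mmu-miR-153-3p: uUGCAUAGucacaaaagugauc
mmu-miR-490-3p: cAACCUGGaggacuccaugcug
mmu-miR-592-5p: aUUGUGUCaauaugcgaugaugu

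The 7 hairpins gave 13 distinct mature sequences with 12 distinct seeds. The seed CUCUGGG of miR-330-5p was also that of miR-326-3p, and both sequences shared a run of 9 bases, CUCUGGGCC. No other mature sequence in the RefSeq table had this seed. The seed of miR-218-5p was held by Mir218-1, by Mir218-2 and by miR-7002-3p, whose gene Mir7002 had 0 counts in replicate 1 and 2 in replicate 2. The seeds shown for miR-153-3p, miR-490-3p and miR-592-5p were held by no other gene in the RefSeq table, which covers 968 of the 2202 miRNA genes. Of the other arms, the seed of miR-218-1-3p was held by Mir496b (0 counts in both libraries) and that of miR-330-3p by Mir6240 (37 counts in replicate 1 and 50 in replicate 2). The tables count whole hairpins, so the 2 arms of a gene cannot be told apart in any value below.

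The 2 Mir218 genes encode the same 21-base miR-218-5p, and their hairpins shared an unbroken run of 22 bases that holds all of it. A read lying inside that run matches both loci, and reads mapping to several places stood in a row of their own and in no gene. Reads of exactly miR-218-5p should therefore be in neither count, and the counts of Mir218-1 and Mir218-2 are uncertain. The part of their counts that comes from longer or altered forms of miR-218-5p was not tested. Their 3p arms differ, and the capitals below mark the longest run of bases the 3p arms share, 10 bases.
mmu-miR-218-1-3p: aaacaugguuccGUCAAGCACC
mmu-miR-218-2-3p: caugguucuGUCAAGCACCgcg
None of the other 5 hairpins with a sequence shared a stretch of 18 bases with any of the 1004 other hairpins in the RefSeq table.

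All 8 hairpins lay in introns of a protein-coding gene, on its strand, in every coding transcript that spans them (GENCODE M21, mm10). Mir218-1 (ENSMUSG00000065603.1; chr5:48223942-48224051) lies in intron 14 of 35 of Slit2, and Mir218-2 (ENSMUSG00000065583.1; chr11:35616816-35616925) in intron 14 of 35 of its paralog Slit3. Slit2 and Slit3 encode secreted ligands of Robo receptors that guide axons. Both Mir218 hairpins lie late in their hosts, at 74.2% of the length of Slit2 and 84.4% of that of Slit3.

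Hosts that encode receptors were Chrm2, the M2 muscarinic acetylcholine receptor, and Grm8, a metabotropic glutamate receptor. Mir490 (ENSMUSG00000070075.1; chr6:36421742-36421825) lies in intron 2 of 2 of Chrm2, an intron of 134.4 kb. Mir592 (ENSMUSG00000076067.1; chr6:27936655-27936750, minus strand) lies in intron 3 of 10 of Grm8, and all 96 of its bases also lie in an exon of a non-coding Grm8 transcript. Mir153 (ENSMUSG00000065538.1; chr12:117250817-117250885) lies in intron 19 of 22 of Ptprn2, a phosphatase-like protein of dense-core secretory vesicles, at 96.7% of its length. The antisense gene Gm5441 runs across Mir153 on the opposite strand.

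The remaining hosts encode proteins of other kinds. Mir383 (ENSMUSG00000065457.3; chr8:38252133-38252202, minus strand) lies in intron 1 of 7 of Sgcz, a sarcoglycan of the dystrophin-associated complex, and that intron spans 708 kb. Mir326 (ENSMUSG00000065571.1; chr7:99552269-99552363) lies in intron 1 of 15 of Arrb1, which encodes beta-arrestin 1, an adaptor that desensitises G-protein-coupled receptors. Mir330 (ENSMUSG00000065543.1; chr7:19181465-19181562) lies in intron 4 of 21 of Eml2, a microtubule-associated protein, and 84 of its 98 bases also lie in an exon of a non-coding Eml2 transcript. Eml2 was the shortest host, at 30.1 kb, and Sgcz the longest, at 1139 kb. Host mRNAs were not measured in these libraries, so whether the hosts were active in neurons here was not tested.

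**Figure D1:**
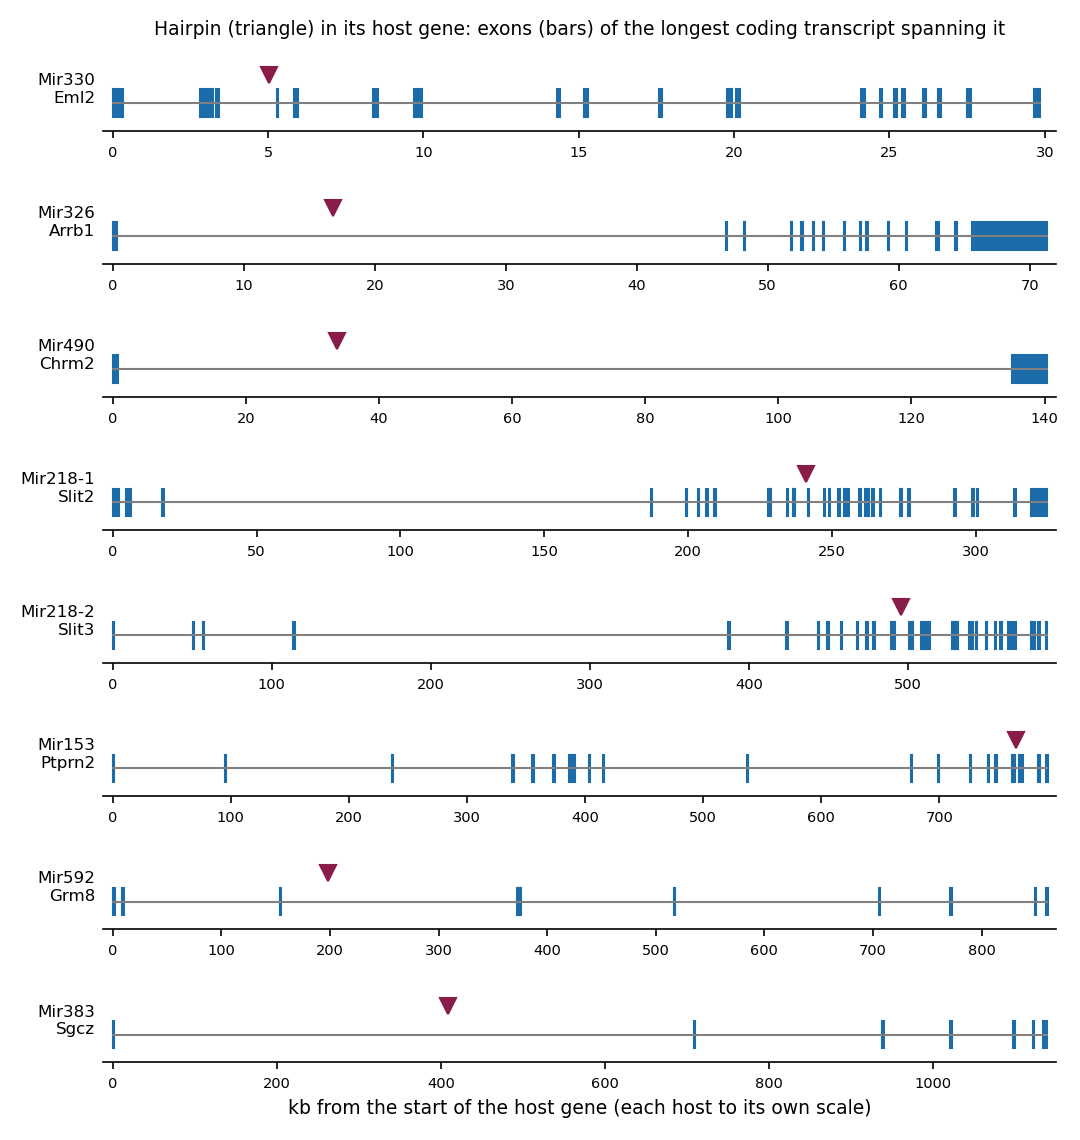
Position of each hairpin (triangle) along its host gene, in kb from the start of the host, with hosts ordered from the shortest (Eml2, 30.1 kb) to the longest (Sgcz, 1139 kb) and each drawn to its own scale. Bars are exons of the longest coding transcript spanning the hairpin, with very short exons widened to stay visible. The Mir218-1, Mir218-2 and Mir153 triangles stand in the last part of Slit2, Slit3 and Ptprn2, and the other 5 stand in the first part of their hosts.

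No other miRNA gene on the same strand lay within 10 kb of any of the 8, and none of the 8 overlapped another miRNA gene. Counts on the opposite strand were 0 for all 8 genes in both libraries, which allows up to 0.71 CPM in replicate 1 and 0.581 CPM in replicate 2 (3 counts per library, counting error only), where CPM are counts scaled to 1000000 counts on miRNA genes.

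The tables held 4226300 counts on miRNA genes in replicate 1 and 5162369 in replicate 2. Reads mapping to several places numbered 1.24 and 1.22 times those counts. Of the forebrain neuron markers, Mir132, Mir137, Mir138-1, Mir138-2, Mir128-1 and Mir128-2 reached 10 CPM in both libraries and the 3 Mir124a genes did not. The Mir124a genes share their mature sequence, and Mir128 and Mir138 also lie at several loci each. How far reads mapping to several places lowered the counts of any of these genes was not tested. Of 7 muscle markers, Mir206 alone reached 10 CPM in both.

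All 8 genes reached 10 CPM in both libraries, as did 309 of the 2202 miRNA genes and 130 of 779 hairpins in introns of coding genes on the same strand. The 8 genes together took 1.988% of the counts in replicate 1 (Wilson 95% interval 1.97 to 2.00) and 1.999% in replicate 2 (1.99 to 2.01), a mean of 1.993% ± 0.0076 (SD, n = 2). Nearly all of this came from Mir330 and Mir383, which held 93.0% of the counts of the 8 genes in replicate 1 and 90.9% in replicate 2. The median level of the 8 genes was 356 CPM, against 249.5 CPM for the 309 genes that reached 10 CPM in both libraries. A read here is a whole small RNA, so levels were compared per hairpin gene. Divided by hairpin length, the order of the 8 genes was the same.

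Mir330 was the most abundant of the 8, and the seed of its arm miR-330-5p, though not that of miR-330-3p, is shared with miR-326-3p. Mir330 had 47301 counts (11192 CPM) in replicate 1 and 56957 counts (11033 CPM) in replicate 2, a mean of 11113 CPM ± 112 (SD, n = 2). It stood at rank 17 of 2202 miRNA genes and rank 8 of 779 intronic hairpins by mean CPM. Mir383, whose mature sequence is not shown here, had 30830 counts (7295 CPM) in replicate 1 and 36859 counts (7140 CPM) in replicate 2, a mean of 7217 CPM ± 110 (SD, n = 2), at rank 24. The level of Mir330 was above that of Mir383 in both libraries and the ranges did not overlap, with ratios of 1.53 in replicate 1 and 1.55 in replicate 2.

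Mir326, known to target Notch receptors in human glioma cells, was far lower than its seed partner. It had 2766 counts (654 CPM) in replicate 1 and 3436 counts (666 CPM) in replicate 2, a mean of 660.03 CPM ± 7.86 (SD, n = 2), at rank 109. Mir330 was 17.1 times as high as Mir326 in replicate 1 and 16.6 times in replicate 2. Counts of the CUCUGGG-bearing genes were thus mostly those of Mir330, although how many of its reads come from miR-330-5p and how many from miR-330-3p was not tested.

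Among the genes in receptor hosts, Mir490 had 1494 counts (353.5 CPM) in replicate 1 and 3035 counts (588 CPM) in replicate 2, a mean of 471 CPM ± 166 (SD, n = 2), at rank 129. Mir592 had 74 counts (17.5 CPM, exact Poisson 95% interval 13.7 to 22.0) in replicate 1 and 363 counts (70.3 CPM, 63.3 to 77.9) in replicate 2, a mean of 43.9 CPM ± 37.3, at rank 250. Both were low in replicate 1 and high in replicate 2. Mir153, which in cell culture lowers alpha-synuclein and whose host is a secretory-vesicle protein, had 595 counts (141 CPM) in replicate 1 and 1774 counts (344 CPM) in replicate 2, a mean of 242 CPM ± 143 (SD, n = 2), at rank 156, and shared this direction.

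Among the genes in Slit hosts, Mir218-2 had 800 counts (189 CPM) in replicate 1 and 603 counts (117 CPM) in replicate 2, a mean of 153 CPM ± 51.3 (SD, n = 2), at rank 180. Mir218-1 had 159 counts (37.6 CPM, exact Poisson 95% interval 32.0 to 43.9) in replicate 1 and 158 counts (30.6 CPM, 26.0 to 35.8) in replicate 2, a mean of 34.1 CPM ± 4.96, at rank 258. miR-218 is best known in mouse from motor neurons, which depend on it. Mir218-2 was 5.03 times as high as Mir218-1 in replicate 1 and 3.82 times in replicate 2. With miR-218-5p common to both loci, neither value stands for the level of that miRNA.

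**Figure D2:**
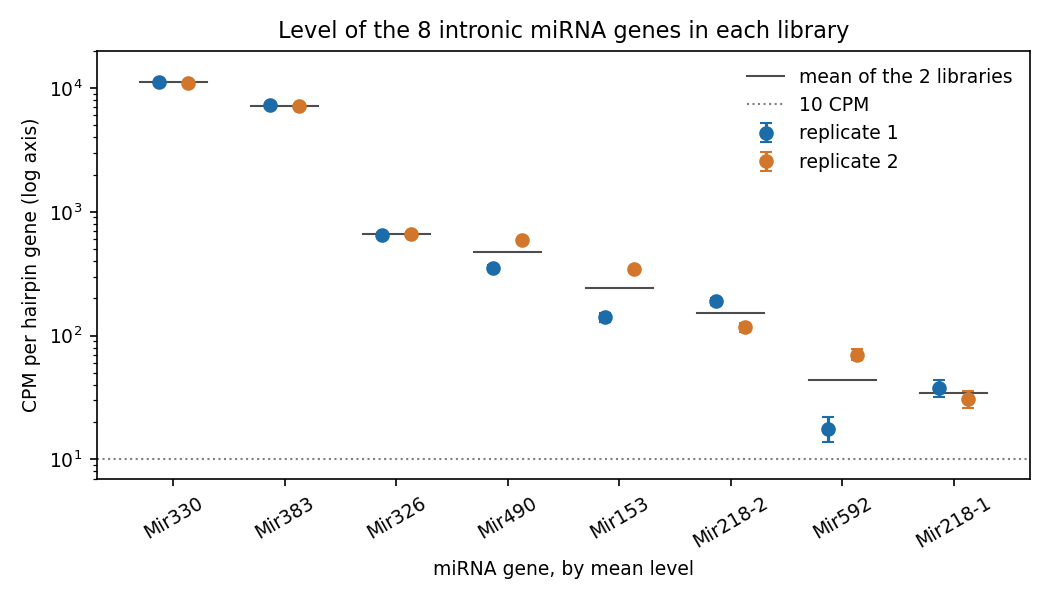
CPM of each of the 8 miRNA genes (log axis) in replicate 1 and replicate 2, with exact Poisson 95% intervals and a line at the mean of the libraries, ordered by mean level. The points of Mir330, Mir383 and Mir326 lie nearly on their means, and those of Mir490, Mir153, Mir218-2 and Mir592 stand apart.

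By mean level the order was Mir330, Mir383, Mir326, Mir490, Mir153, Mir218-2, Mir592 and Mir218-1. The ranges over the 2 libraries overlapped for Mir153 with Mir218-2 and for Mir592 with Mir218-1, so these neighbours did not differ beyond their spread. Mir153 was lower than Mir218-2 in replicate 1 (a ratio of 0.744) and higher in replicate 2 (2.94). The gap between Mir490 and Mir153 was narrow too, with 353.5 CPM as the lower value of Mir490 and 344 CPM as the higher value of Mir153.

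The libraries were compared gene by gene with a two-sided exact binomial test on the counts, in which TMM factors scaled the library sizes. P-values were adjusted by Benjamini-Hochberg over all 546 genes that had 10 counts or more in both libraries together, with a threshold of 0.05. Such a test bears on these libraries alone, and counting error is the only error it holds. Of all genes tested, 58.8% were called, and 6 of the 8 genes were called. In the direction of replicate 1 the background was 34.2%, with 3 of the 8, and in the direction of replicate 2 it was 24.5%, with 3 of the 8. With DESeq2 size factors, and with edgeR's exact test at a BCV of 0.1, Mir330 and Mir383 were not called, which left 1 gene called towards replicate 1 and 3 towards replicate 2. Of the 546 genes, 313 were called with DESeq2 size factors, and 157 (28.8%) at a BCV of 0.1. Among genes of 100 counts or more, as all 8 were, the binomial test called 77.9%. Its count of 6 of the 8 genes thus stood near the background.

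Mir592, Mir153 and Mir490 were the genes higher in replicate 2. Mir592 had a log2 ratio of -1.97 for replicate 1 over replicate 2 (counting-error 95% interval -2.36 to -1.61), a 3.91-fold higher level in replicate 2 (adjusted p = 1.79e-33, exact binomial test). Mir153 had a log2 ratio of -1.26 (-1.39 to -1.12), a 2.39-fold higher level in replicate 2 (adjusted p = 7.29e-84, exact binomial test). Calls of 2-fold or more towards replicate 2, as these 2 genes had, made up 6.78% of all genes tested (20.0% in either direction) and 3.68% of those with 100 counts or more. Mir490 had a log2 ratio of -0.70 (-0.79 to -0.61; adjusted p = 3.46e-55, exact binomial test), 1.63-fold higher in replicate 2. The within-library ratio of Mir490 to Mir592 was 20.2 in replicate 1 and 8.36 in replicate 2, so these 2 genes of chromosome 6 moved by unequal amounts.

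The summed levels of several marker lists were also higher in replicate 2. Calls in every marker list stand beside a background of 34.2% of all genes towards replicate 1 and 24.5% towards replicate 2. The 5 choroid plexus and ependyma markers summed to 930 CPM in replicate 1 and 1612 CPM in replicate 2, with Mir204, Mir34c and Mir1298 called towards replicate 2 and 2 not called. The 3 blood markers summed to 72.4 CPM in replicate 1 and 887 CPM in replicate 2, with Mir451a and Mir144 called towards replicate 2 and Mir486 towards replicate 1. Most of that gap was Mir451a, at 30.0 CPM in replicate 1 and 821 CPM in replicate 2. The 5 endothelium and mural markers summed to 13268 CPM in replicate 1 and 19327 CPM in replicate 2, with Mir126a and Mir143 called towards replicate 2 and Mir145a towards replicate 1. Most of that gap was Mir126a, at 7756 CPM in replicate 1 and 13122 CPM in replicate 2. Mir126b and Mir145b had 1 count each in replicate 1 and 0 in replicate 2. Lists named for other organs were higher in replicate 2 too. The liver marker Mir122 had 48.5 CPM in replicate 1 and 86.6 CPM in replicate 2, and was called. The 3 pancreas markers summed to 314 CPM in replicate 1 and 470 CPM in replicate 2, with Mir375 alone called, towards replicate 2. The 7 muscle markers summed to 43.5 CPM in replicate 1 and 52.9 CPM in replicate 2, with Mir206 called towards replicate 2 and Mir208a towards replicate 1. The part of these cell types and organs in the levels of Mir592, Mir153 and Mir490 was not tested. In bulk tissue fewer cells of a type cannot be told apart from less RNA per cell.

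Of the genes higher in replicate 1, Mir218-2 had the largest difference, with a log2 ratio of 0.73 (0.57 to 0.88; adjusted p = 2.47e-20, exact binomial test), 1.66-fold. Mir218-1 had a log2 ratio of 0.33 (0.0021 to 0.66) and an adjusted p of 0.0779 in the exact binomial test, so it missed the threshold. Both ratios leave out reads that match both Mir218 loci. Whether the 2 Mir218 genes differed from each other in this ratio was not tested.

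The summed levels of other marker lists were higher in replicate 1, as Mir218-2 was. The 9 forebrain neuron markers summed to 64462 CPM in replicate 1 and 39673 CPM in replicate 2. Most of that gap was Mir132, at 40577 CPM in replicate 1 and 21189 CPM in replicate 2. Of the 9, 5 were called towards replicate 1, among them Mir124a-3 with 10 counts in replicate 1 and 3 in replicate 2. Mir138-1 and Mir138-2 were the 2 called towards replicate 2. Mir124a-1, with 7 counts in replicate 1 and 19 in replicate 2, was not called. Mir124a-2, at 0 counts in replicate 1, had too few counts for the test. The 2 oligodendrocyte markers (7091 CPM in replicate 1 and 5329 CPM in replicate 2) and the 3 astrocyte markers (33652 CPM in replicate 1 and 28704 CPM in replicate 2) were all called towards replicate 1. The 6 microglia and immune markers summed to 4956 CPM in replicate 1 and 2261 CPM in replicate 2, with 3 called towards replicate 1 and 1 towards replicate 2, and Mir146b at 0 counts in replicate 2. Most of that gap was Mir21a, at 3357 CPM in replicate 1 and 899 CPM in replicate 2, while Mir155 was not called. The 4 Mir302 genes, known from pluripotent cells, together had 1786 counts in replicate 1, against a single count in replicate 2. The part of any of these in the level of Mir218-2 was not tested.

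Mir330 and Mir383 were called for differences of a few percent, at 1.04-fold each. The log2 ratio was 0.052 for Mir330 (0.034 to 0.069; adjusted p = 2.49e-08, exact binomial test) and 0.062 for Mir383 (0.040 to 0.084; adjusted p = 7.48e-08, exact binomial test), and with DESeq2 size factors they were -0.019 for Mir330 and -0.0089 for Mir383, with no call. Mir326 had a log2 ratio of 0.0069 (-0.066 to 0.080; adjusted p = 0.906, exact binomial test). Of the 326 genes with 100 counts or more, 28 (8.59%) had a log2 ratio as near 0 as that of Mir383, and the median absolute log2 ratio was 0.42. Mir330, Mir383 and Mir326 were among these 28.

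**Figure D3:**
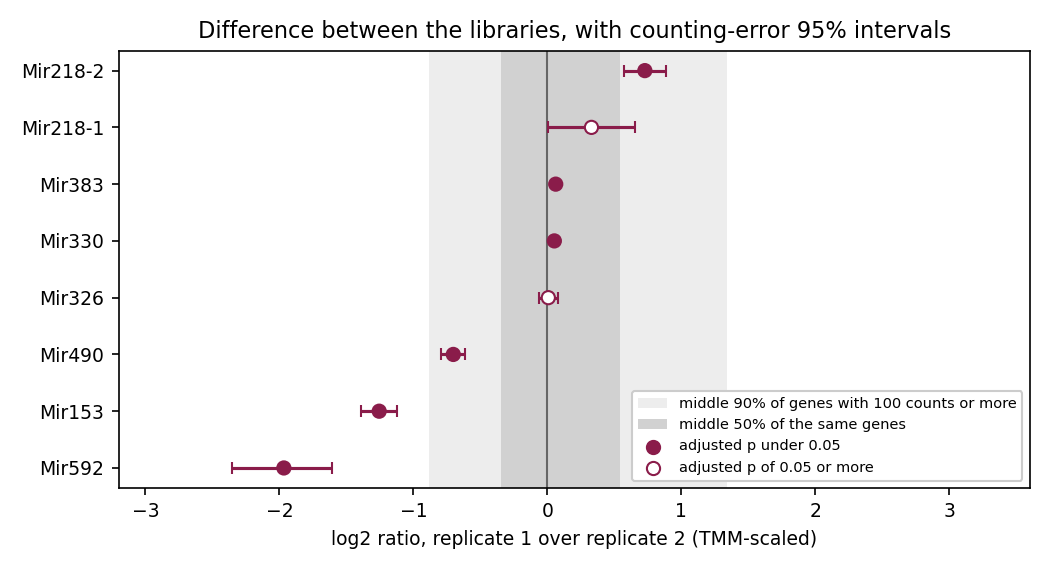
Log2 ratio of replicate 1 over replicate 2 for each of the 8 miRNA genes, with exact 95% intervals for counting error, filled where the adjusted p was under 0.05. The grey bands hold the middle 50% (-0.34 to 0.54) and 90% (-0.88 to 1.34) of the 326 genes with 100 counts or more, and Mir153 and Mir592 lie outside the wider band, towards replicate 2.

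Counting error leaves out other spread between these libraries, whose biological coefficient of variation (BCV) over the tested genes was 0.481. With the BCV fixed at 0.1 in edgeR's exact test, which called 28.8% of all genes, Mir592, Mir153, Mir490 and Mir218-2 were called and Mir330 and Mir383 were not. With the BCV fixed at 0.4, which called 1.28% of all genes, 0 of the 8 were called. Mir592 alone of the 8 had an unadjusted p under 0.05 there (p = 0.0258, edgeR exact test), as did 40 of the 546 genes.

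**Figure D4:**
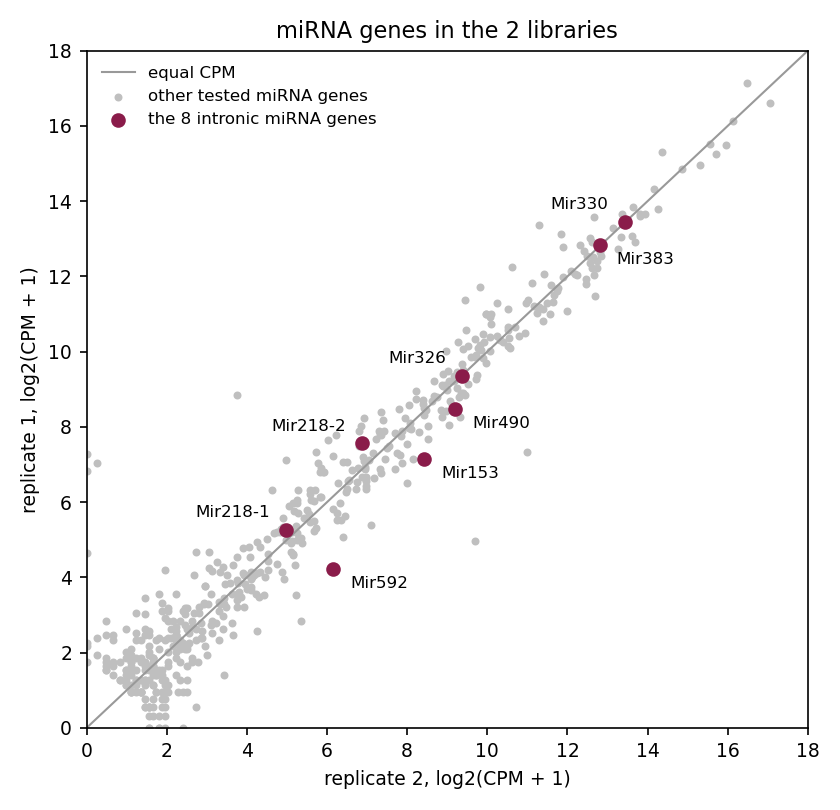
Levels of the tested miRNA genes as log2(CPM + 1) in replicate 1 (vertical axis) and replicate 2 (horizontal axis), with a line of equal CPM. Mir330, Mir383 and Mir326 lie on the line, Mir218-1 and Mir218-2 above it, and Mir490, Mir153 and Mir592 below it.

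Genes with the nearest pair of levels were sought for each of the 8 among 538 other tested genes, by the distance of log2(CPM + 1) over the 2 libraries. Mir6516 lay nearest to Mir218-1 (distance 0.11), Mir340 to Mir218-2 (0.13), Mir322 to Mir490 (0.14), Mir425 to Mir326 (0.16), Mir221 to Mir383 (0.18), Mir29a to Mir330 (0.23) and Mirlet7a-2 to Mir153 (0.28). Mir592 was the most isolated by this measure, with Mir301 as its nearest gene at a distance of 0.89. Mir301 had 32.4 CPM in replicate 1 and 83.5 CPM in replicate 2. Over 2 libraries this describes level and ratio only.

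Levels of host genes were not measured, so the names neuronal and broadly expressed give the choice of the lists only, as for the 8. A list of further miRNA genes, chosen as lying inside hosts known from neurons, was described beside the 8. In this list, Mir128-1 and Mir128-2 are also forebrain neuron markers and Mir338 is an oligodendrocyte marker. Mir448, Mir764, Mir1264 and Mir1912 lie in Htr2c, which also hosts Mir1298 of the choroid plexus and ependyma list. Of 16 such genes, 14 reached 10 CPM in both libraries, and the median over all 16 was 600 CPM, against 356 CPM for the 8 genes and 191 CPM for 17 genes inside broadly expressed hosts. The highest were Mir139 in Pde2a, at 117333 CPM ± 37043, Mir149 in Gpc1, at 7215 ± 1600, and Mir128-1 in R3hdm1, at 6344 ± 3757 (SD, n = 2 each). Mir330 thus had a mean level below that of Mir139 alone in this list, and Mir383 was level with Mir149. The highest in broadly expressed hosts were Mir744 in Map2k4, at 47680 CPM ± 984, Mir151 in Ptk2, at 14268 ± 1952, and Mir26b in Ctdsp1, at 6025 ± 744 (SD, n = 2 each). Reads mapping to several places are in no gene, so a gene whose mature sequence lies at several loci can be counted low. How far this lowered the median of each list was not tested.

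Between the libraries, the 16 genes inside neuronal hosts had 10 called towards replicate 1, 3 towards replicate 2 and 3 not called. Those called towards replicate 2 were Mir708 and the Htr2c genes Mir448 and Mir1912. The median log2 ratio of the 16 genes was 0.41, against 0.029 for the 8 genes and 0.069 for all genes tested. The 17 genes inside broadly expressed hosts had 6 called towards replicate 1, 8 towards replicate 2 and 3 not called, with a median of -0.060. Of all genes tested, 34.2% were called towards replicate 1 and 24.5% towards replicate 2. The shares called in either direction, 81% and 82% in these lists, stood near the 77.9% of genes with 100 counts or more. Median absolute log2 ratios were 0.52 for the 8 genes, 0.68 for the neuronal hosts, 0.34 for the broadly expressed hosts and 0.504 for all genes tested. Among genes with 100 counts or more, as all 8 were, they were 0.68 for the neuronal hosts (15 genes), 0.28 for the broadly expressed hosts (15 genes) and 0.42 for all (326 genes). No difference between these lists was tested.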

How the data were processed

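The authors deposited 1 table per library with raw, unnormalized counts for each miRNA gene. The annotation was GENCODE M21 and the build mm10, per the text records deposited with the tables. Which aligner, counter and adapter trimming made them is not given in the sources used here. Of the value columns, the one taken as the gene's own strand was identified by its totals and the annotation. The 4 rows that name no gene (67.4% of reads in replicate 1 and 67.6% in replicate 2) were left out. Mapping loss in a strain unlike the reference, and adapter ligation that favours some sequences, can shift levels, and neither was tested.

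CPM were computed over counts on miRNA genes. TMM factors (edgeR 4.0.16, R 4.3.3) were computed over the genes tested (10 counts or more in both libraries together), and ratios have 0.5 counts added to each library. The tests used scipy 1.17.1 and statsmodels 0.14.6, and DESeq2 1.42.0 gave alternative size factors. The methods were tested on simulated data that held counting error only, as the binomial test assumes. That test cannot show how they behave under the wider spread of these libraries. Intronic means outside every exon of all coding transcripts spanning the hairpin. Ratios were also computed with other scalings, filters, tests and the unstranded column. The 8 genes, by a rule on names and hosts, and the lists were chosen with earlier results of these data known. Named beside the 8 genes were the nearest gene of each, genes sharing a seed, the 3 highest of each list and, chosen after their values were seen, markers that moved. Intervals cover counting error only.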

Additional observations from a re-analysis of the deposited data

How the results depend on the processing

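Directions and calls of Mir592, Mir153, Mir490 and Mir218-2 were the same with DESeq2 size factors, total counts, the unstranded column, no filter, a filter of 100 counts, and edgeR's exact test with the BCV fixed at 0.1. With the BCV fixed at 0.4, 0 of the 8 genes and 7 of all genes were called, against 157 at 0.1 and 321 with the binomial test, since these tests allow for spread beyond counting. The log2 ratio of Mir592 ranged from -2.04 to -1.9 over these settings and with 5 counts added. DESeq2 size factors turned the log2 ratios of Mir330 to -0.019, Mir383 to -0.0089 and Mir326 to -0.064, and total counts turned Mir326 to -0.024, none of them called. DESeq2 scaling lowers every log2 ratio alike, and the median of all genes was then -0.0023 in place of 0.069. The share of the 8 genes was 2.14% with the unstranded column and 0.647% of all reads. It was 1.99% to 2.00% with either library left out, which by construction moves a mean of 2 by less than the SD. At 100 CPM, 6 of the 8 genes were detected in both libraries. The fewest counts were those of Mir592 in replicate 1 (74), where counting error is largest relative to the level. No paired analysis was possible because the design holds 1 group.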
